A study of Mus musculus with 34 samples.

Results

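Replication-dependent histone genes were followed here through RNA-seq libraries that differed in how ribosomal RNA was handled. Members were all genes of the deposited table whose symbol starts with Hist1h, Hist2h, Hist3h or Hist4h, which gave 70 of 51368 genes. They comprised 6 linker histone H1 genes, 20 H2A genes, 19 H2B genes, 12 H3 genes and 13 H4 genes. The annotation placed 56 on chromosome 13, 10 on chromosome 3, 3 on chromosome 11 and 1 on chromosome 6, and called 67 protein-coding and 3 pseudogenes.

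The RNA came from the liver of 1 wild-type C57BL/6J mouse, with 1 further library from heart. The labels give its age as 12 weeks, and its sex as male in the growth protocol but as female in the sample characteristics, a conflict that could not be settled. Liver RNA went through polyA selection (9 libraries, batch 1), rRNA pull-down with probes (9 libraries, batch 2) or rRNA digestion guided by probes (9 libraries, batch 2), each over 3 PCR ramp rates and 3 fragment lengths. Unselected liver libraries (3 in batch 1 and 3 in batch 2) and the heart library (batch 1) had a slow ramp and medium fragments. Kits were TruSeq Stranded mRNA for polyA, TruSeq Stranded Total RNA for pull-down and unselected libraries, and Illumina Stranded Total RNA Prep with Ribo-Zero Plus for digestion. Input was 200 ng for selected and 20 ng for unselected libraries, and every library had 13 PCR cycles. All libraries of a tissue are technical preparations from this mouse, so the p-values measure the spread between preparations. PolyA selection was run in batch 1 alone and the rRNA methods in batch 2 alone, so method and batch cannot be told apart when they are compared directly.

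Core histones H2A, H2B, H3 and H4 form the nucleosome, and H1 binds the linker DNA between nucleosomes. Replication-dependent histone genes are switched on in S phase, when new DNA must be packaged. Their mRNAs are unusual among animal mRNAs because they normally end just after a conserved stem-loop, which stem-loop binding protein (SLBP) holds, and carry no poly(A) tail. Some of these genes can also give longer, polyadenylated transcripts, which have been described in differentiated cells. Replacement variants such as H3f3a are made outside S phase from ordinary polyadenylated mRNAs. Most liver and heart cells of an adult mouse are not dividing.

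The stem-loop was searched for in the GENCODE M21 transcripts (GRCm38), on the transcript strand, as the conserved histone stem-loop motif with its 6-base stem and 4-base loop. It was present in 44 of the 67 coding members (65.7%) and in 4 of 21810 other genes with a coding transcript (0.0183%). In 15 coding members the longest annotated model ends at the stop codon, so a stem-loop past it could not be found. The share is therefore one of annotated models, and members without a match may still carry the hairpin. The sequences below are shown because the same hairpin occurs in genes that kept their signal after polyA selection and in genes that lost it. Capitals mark the stem and loop.
Hist1h1c: aaaaGGCTCTTTTCAGAGCCacca
Hist3h2a: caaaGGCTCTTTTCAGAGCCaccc
Hist2h2aa1: aaaaGGCTCTTTTCAGAGCCaccc
Hist1h1e: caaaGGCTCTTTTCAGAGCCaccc
Hist1h4i: taaaGGCCCTTTTTAGGGCCacca
Hist2h4: taacGGCCCTTTTTAGGGCCaacc
Hist1h4h: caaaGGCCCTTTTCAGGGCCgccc
Hist1h4d: caaaGGCCCTTTTCAGGGCCacta
Hist1h3e: aaacGGCTCTTTTAAGAGCCacct
The first 4 genes share all 16 letters in capitals with 22 further members.

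A second feature was the poly(A) signal, searched for as AATAAA or ATTAAA on the transcript strand within the last 36 bases of each annotated transcript. Either word was found in 20 of the members' 74 coding transcripts (27%), against 28030 of 58797 coding transcripts of all genes (47.7%). Models that end at the stop codon are counted here too, although no sequence past it could be searched in them. The ends below are shown because such a word occurs in 3 members that were well detected after polyA selection and in 2 that were nearly lost. Capitals mark the word nearest the end, and Hist1h4j has a further AATAAA before it in lower case.
Hist1h1c: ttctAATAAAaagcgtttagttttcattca
Hist2h2be: ttattattAATAAAgttaccgattagtttc
Hist1h4i: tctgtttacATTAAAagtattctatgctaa
Hist4h4: agaagatgctagaggagatgaAATAAAtac
Hist1h4j: cggatgcaataaaattctgAATAAAactgc

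Library totals lay between 19873390 and 41396063 counts, apart from the pull-down library with slow ramp and long fragments, which had 1126383 counts. The members held 855 to 1046 counts in each unselected liver library, 2588 to 5866 in polyA, 7347 to 13156 in digestion and 4654 to 10648 in the 8 deeper pull-down libraries. The low-depth library had 738 member counts and stood apart, with 603 normalised CPM over all members where the other 8 lay between 142 and 278 (normalised CPM are counts scaled to a common library size by the TMM method of edgeR). Nuclear rRNA, mitochondrial genes and Lars2 took 85.6% to 86.4% of the counts of unselected liver libraries. The hepatocyte list (8 of 8 genes in the table) summed to 15313 to 15624 normalised CPM in unselected batch 1 liver and to 53.7 in heart, when these 4 libraries were normalised on their own, which gives lower values than the normalisation over all liver libraries used below. On the same scale the cardiomyocyte list (8 of 8) summed to at most 0.152 in liver and to 7384 in heart, and Myh6, Myl3 and Nppa were at 0 in all unselected liver libraries.

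Summed over all members under TMM scaling, the level was 199.9 ± 13.6 normalised CPM in unselected batch 1 (SD, n = 3) and 85.4 ± 9.54 in polyA (SD, n = 9). By library totals, which raise the median of all genes by 2.67 (log2), the order was reversed without overlap. The lowest polyA library then had 2588 of 26323766 counts and the highest unselected batch 1 library 1046 of 21695696. The genes split into a few that were well detected after polyA selection and many that were not. A mean of at least 10 counts per library was reached by 48 members after digestion and 45 after pull-down. The shallow unselected sets had 16 such members in batch 1 and 12 in batch 2. After polyA selection 8 reached it, and 21 had no count in any of the 9 polyA libraries. The shares of all genes at these limits are not given here. Those 8 genes were Hist1h2bc, Hist1h1c, Hist2h2aa1, Hist2h2aa2, Hist3h2a, Hist2h2be, Hist1h4i and Hist1h4h. They held 98.4% ± 0.283 (SD, n = 9) of all member counts in polyA libraries, 47.7% ± 1.14 (SD, n = 3) in unselected batch 1 and 53.2% ± 0.654 (SD, n = 9) in digestion, where the set was chosen on the polyA counts themselves.

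**Figure D1:**
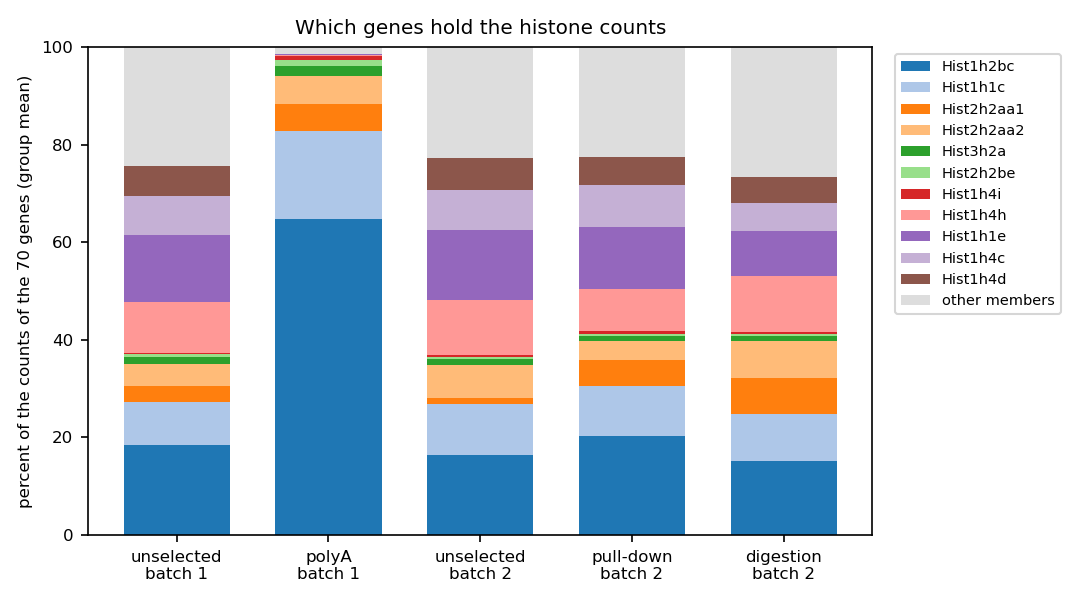
Percent of the counts of the 70 histone genes held by each of 11 genes and by the other members, as the mean over the libraries of each liver group. Hist1h2bc and Hist1h1c fill most of the polyA bar, while Hist1h1e and the H4 genes seen in the 4 other bars are almost missing from it.

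Hist1h2bc, an H2B gene on chromosome 13 (chr13:23684199-23692908, plus strand, GRCm38), was the only member called higher after polyA selection against unselected RNA, where scaling by library totals, which raises the median of all genes by 2.67 (log2), called 7 members higher and 35 lower, beside 92.5% and 2.3% of all genes. Against digestion it was the only one under both scalings. Its normalised CPM were 34.9, 37.6 and 37.7 in the unselected batch 1 libraries and ran from 47.3 over a median of 51.4 to 65.9 in the 9 polyA libraries. Digestion gave 32.7 to 38.7 (median 35.8) and pull-down 37.9 to 59.6 (median 52.8). The polyA values did not overlap with the unselected or the digestion values. The log2 fold change was 0.56 (SE 0.10) against unselected libraries (adjusted p = 3.8e-05, edgeR quasi-likelihood test) and 0.62 (SE 0.05) against digestion (adjusted p = 3.7e-12). With the difference between the unselected libraries of the batches taken out, the second value was 0.37 (SE 0.14, adjusted p = 0.0293). Hist1h2bc alone held 64.8% ± 3.98 (SD, n = 9) of member counts in polyA libraries and 18.4% ± 1.20 (SD, n = 3) in unselected batch 1.

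Hist1h1c (chr13:23738808-23740367, plus strand) encodes a linker histone of the H1 family. It measured 17.9, 16.2 and 19.0 normalised CPM in unselected batch 1, 13.5 to 17.4 (median 15.1) in polyA and 20.4 to 24.9 (median 22.0) in digestion. The polyA range overlapped with the unselected one and lay wholly under the digestion range. The log2 fold change against unselected was -0.24 (SE 0.13), which did not pass the test (adjusted p = 0.119, edgeR) but passed with DESeq2 (-0.30, adjusted p = 0.0400). Scaling by library totals turned it to 2.41, under the median shift of all genes. The change against digestion was -0.57 (SE 0.06, edgeR adjusted p = 1.1e-10).

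Hist2h2be (chr3:96221119-96223738, plus strand), another H2B gene, stood near 1 normalised CPM under every method. The 3 unselected batch 1 libraries gave 1.44, 0.445 and 1.25, polyA 0.721 to 1.51 (median 1.08), pull-down 0.854 to 1.63 (median 1.06) and digestion 0.777 to 1.23 (median 0.978), and all 4 ranges overlapped. The log2 fold change was 0.16 (SE 0.38, edgeR adjusted p = 0.804) against unselected and 0.10 (SE 0.12, adjusted p = 0.464) against digestion. The unselected groups held 15 counts each for this gene, so a moderate difference was not detectable at this depth.

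Hist3h2a (chr11:58954685-58956830, plus strand), an H2A gene, had 2.88, 3.56 and 2.09 normalised CPM in unselected batch 1, 1.47 to 2.28 (median 1.83) in polyA and 1.89 to 2.81 (median 2.55) in digestion. The polyA range overlapped with both others at its upper end. It fell by 0.71 (SE 0.27) on the log2 scale against unselected (edgeR adjusted p = 0.0303) and by 0.54 (SE 0.10) against digestion (adjusted p = 8.9e-06). The first call was lost in the fit of batch 1 alone (-0.76, adjusted p = 0.0586) and without unselected batch 1 replicate 1 (-0.69, adjusted p = 0.0972) or 2 (-0.52, adjusted p = 0.223), and without the gene filter (-0.65, adjusted p = 0.0691). The second was lost with the batch difference taken out (-0.88, adjusted p = 0.0531). Hist3h2a overlaps Trim17 on the same strand and shares 32.1% of its 31-base words with other genes, Trim17 among them. Trim17 had 2 counts over the 9 polyA and 5 over the 9 digestion libraries, and the split of shared reads between them is uncertain.

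Hist1h4i (chr13:22040636-22041362, minus strand), an H4 gene, sat on the edge of the rule for kept signal (at least 10 mean counts in polyA and a log2 fold change of at least -1 against digestion). Its values were 1.03, 0.445 and 0.417 normalised CPM in unselected batch 1, 0.395 to 0.721 (median 0.625) in polyA and 1.00 to 1.49 (median 1.17) in digestion. The polyA and digestion ranges did not overlap. The log2 fold change against digestion was -1.01 (SE 0.14, edgeR adjusted p = 8.4e-08), just outside the rule, while Hist1h1c was the lowest inside it. The call was lost with the batch difference taken out (-0.75, SE 0.65, adjusted p = 0.400). Its change against unselected was -0.15 (SE 0.49, adjusted p = 0.837) on 9 unselected counts.

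**Figure D2:**
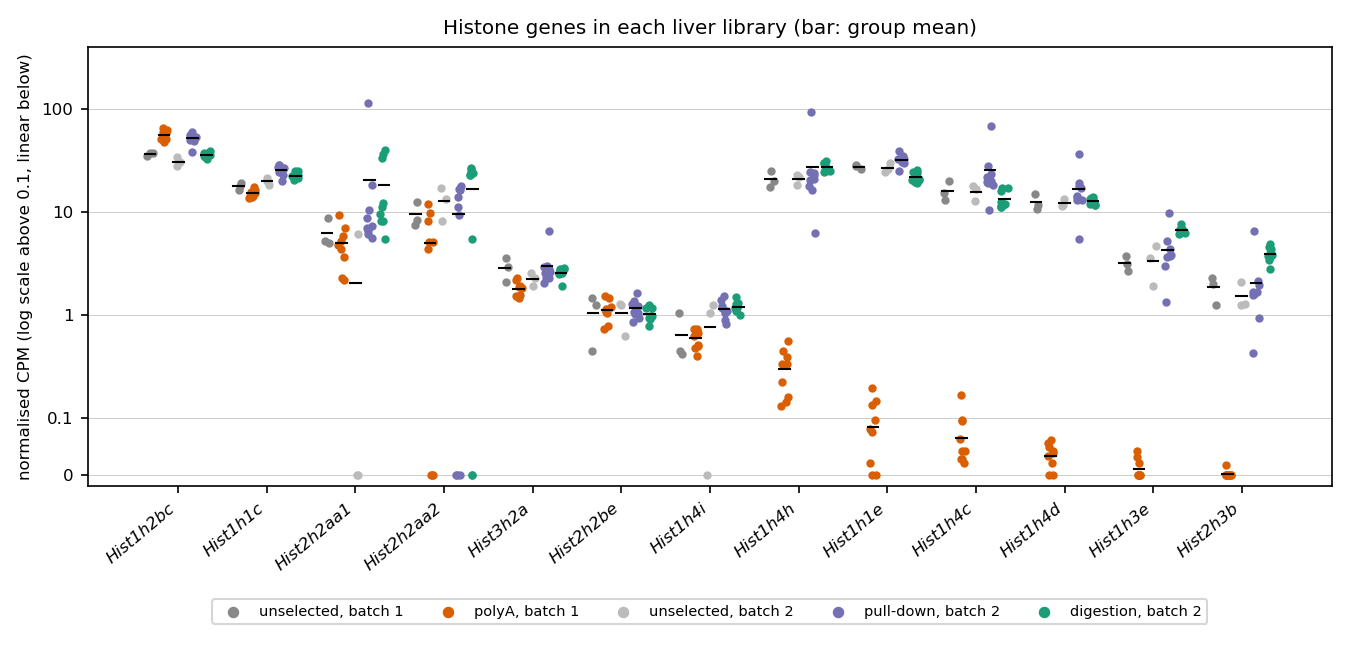
Normalised CPM of 13 histone genes in each of the 33 liver libraries, by group, on an axis that is logarithmic above 0.1 and linear below, with group means as bars. Hist1h2bc, Hist1h1c, Hist3h2a, Hist2h2be and Hist1h4i lie near their unselected level in the polyA libraries, while Hist1h4h through Hist2h3b drop by an order of magnitude or more, and 1 pull-down point lies high for several genes.

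The copies Hist2h2aa1 and Hist2h2aa2 formed an intermediate case. Both are H2A genes on chromosome 3, and they share 89.7% and 100% of their 31-base words with other genes, each other and the overlapping gene Gm20634 among them, so their single values are uncertain. Their sum was 15.7 ± 2.79 normalised CPM (SD, n = 3) in unselected batch 1, 9.87 ± 4.16 (SD, n = 9) in polyA and 35.1 ± 3.23 (SD, n = 9) in digestion. The polyA libraries spread from 4.34 to 17.8, over the unselected range, and digestion from 31.8 to 40.2, above both. With Gm20634 added, the sum had a log2 fold change of -1.81 (SE 0.22, edgeR adjusted p = 8.3e-09) against digestion and of -0.85 (SE 0.47, adjusted p = 0.137) against unselected.

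Most other members were nearly lost. Hist1h1e, a linker histone gene, had 26.0, 27.6 and 28.6 normalised CPM in unselected batch 1 and 19.2 to 25.4 in digestion, but 0 to 0.194 in polyA, where 2 libraries had no count. Its log2 fold change was -8.28 (SE 0.24, edgeR adjusted p = 1.8e-22) against unselected and -7.90 (SE 0.15, adjusted p = 3.3e-28) against digestion. Hist1h4h was the highest member per kilobase of exon after digestion, at 57.5 normalised CPM per kb, ahead of Hist2h2aa2 (31.8), Hist2h2aa1 (31.2) and Hist1h2bc (30.9), whose order among themselves their spread does not settle. After polyA selection it measured 0.636 per kb, and Hist1h2bc led at 47.8 before Hist1h1c at 9.70.

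For Hist1h4h the libraries gave 24.9, 17.4 and 20.0 normalised CPM in unselected batch 1, 24.5 to 30.9 in digestion and 0.130 to 0.551 in polyA. PolyA libraries thus held 1.13% of the digestion level (95% interval 0.941% to 1.35%, exact, counting error only). Hist1h4c kept 0.512% (0.340% to 0.740%) and Hist1h4d 0.270% (0.148% to 0.454%), both being H4 genes. The H3 gene Hist2h3b had 1 count in all polyA libraries against 1482 in digestion, a ratio of 0.0633% (0.00160% to 0.353%). Hist1h4f had none against 647, at least 230-fold lower against a floor of 3 counts over the group.

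Over the set, 58 of 70 members passed the filter on low counts. Against unselected libraries, 42 fell and 1 rose after polyA selection (edgeR, adjusted p under 0.05), where 24.8% of all 15422 genes tested fell and 25.6% rose (50.4% in either direction). The median log2 fold change of the 58 was -5.70, and that of all genes was 0.04. With the 9 members at 0 in polyA set to their bound the median was -5.54. Against digestion, 55 fell and 1 rose, beside 42.2% and 38.4% of all genes (80.6% in either direction), with a median of -5.77 (-5.31 with 14 members at their bound) beside -0.03. With the batch difference taken out, 43 fell and 1 rose, beside 22.9% and 19.3% of all genes in that fit. Both comparisons share the polyA libraries. The members that passed include many seen mainly in the rRNA-method libraries, so these counts describe the members tested.

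By family, the fall against digestion covered all H1, H2A, H3 and H4 genes tested, and the counts were the same with library totals (beside 55.3% of all genes lower and 25.4% higher) but not with the batch difference taken out. All 11 tested H3 genes fell, with a median log2 fold change of -7.79 (-6.82 with 4 genes at 0 in polyA set to their bound) and none above -3.76. All 13 H4 genes fell (median -6.75, highest Hist1h4i), as did all 5 tested H1 genes (median -6.21, highest Hist1h1c) and all 14 tested H2A genes (median -5.44, or -4.59 with 5 genes at their bound, highest Hist3h2a). Of 15 tested H2B genes 12 fell and 1 rose, with a median of -4.01. With the batch difference taken out, 8 H2A genes fell, and Hist1h2ad, Hist1h2ag, Hist1h2ai, Hist2h2aa2, Hist2h2ab and Hist3h2a lost their calls. In that fit 9 H3 genes fell, without Hist1h3d and Hist2h3c2, as did 12 H4 genes, without Hist1h4i, all 5 H1 genes and 9 H2B genes, without Hist1h2bh, Hist1h2bl and Hist1h2bq. The share of member counts held by H4 genes was 31.7% ± 0.562 in digestion and 1.44% ± 0.247 in polyA (SD, n = 9 each). H3 genes held 8.69% ± 0.627 and 0.132% ± 0.0572, and H2B genes 18.8% ± 0.603 and 66.8% ± 4.19, in the same groups.

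**Figure D3:**
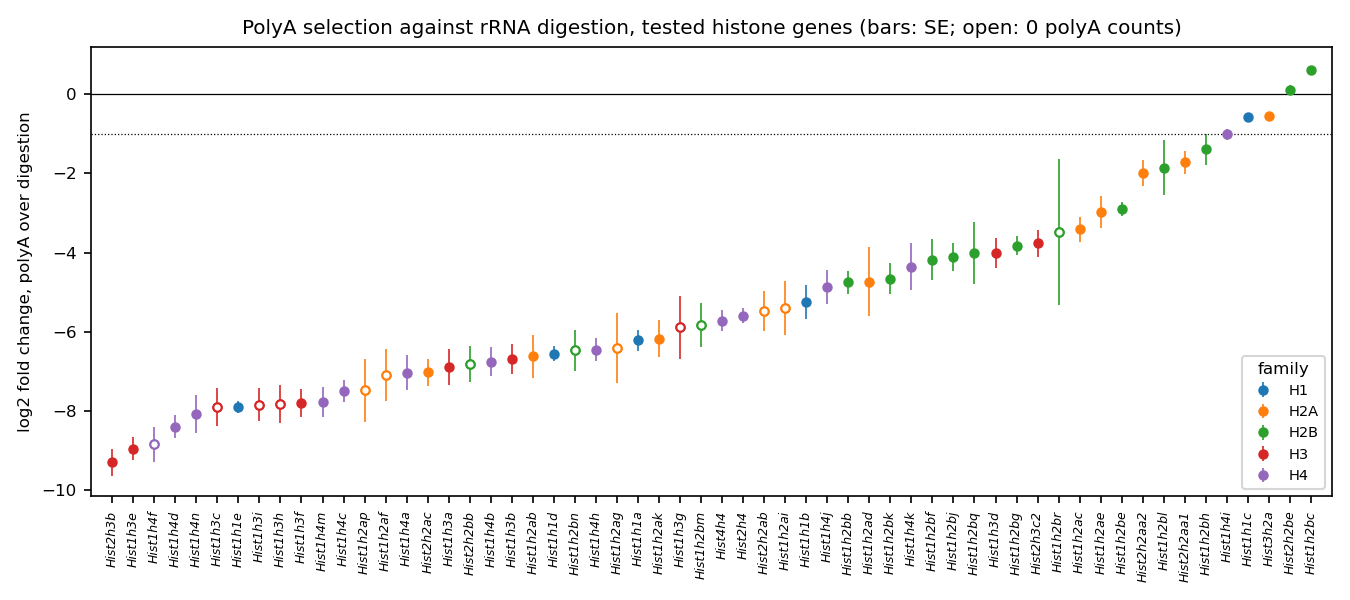
Fitted log2 fold change between polyA and digestion libraries for the 58 tested histone genes, sorted, with the standard error and coloured by family, where the dotted line marks -1 and open points had 0 counts in polyA libraries, so that their values depend on the fit. Only 4 genes lie above the dotted line, Hist1h4i lies just under it at -1.01, and all H3 genes lie at -3.76 or lower.

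Graded by the ratio of polyA to digestion levels, the 48 members with at least 10 mean counts in digestion fell into 5 at 50% or more (Hist1h4i the lowest of them), 4 from 10% to under 50%, 18 from 1% to under 10% and 21 under 1%. Of these, 5 in the third class and 4 in the lowest had no polyA count and are placed by their upper bound. The shares of all genes in these classes are not given here, so the class counts describe the members alone. Hist1h4i had a ratio of summed levels of 50.2% (95% interval 42.8% to 58.8%, exact, counting error only), while its fitted log2 fold change of -1.01 lies on the other side of the same limit. The intermediate class held, besides the Hist2h2aa copies, Hist1h2be (13.2%, 88 counts against 624) and Hist1h2ae (11.3%, 17 against 141). Hist1h2be overlaps Hist1h1e on the same strand, and Hist1h1e shares 34.7% of its 31-base words with other genes, Hist1h2be among them, so the split of reads between the pair is uncertain.

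The annotated 3' ends of the genes were set beside these values. The longest model of Hist1h1c runs 840 bases past its stem-loop, that of Hist3h2a 1643 bases and that of Hist1h4i 330 bases, and all have a signal word near the end. Hist2h2be has 2192 bases after its stop codon, a signal word and no stem-loop in the annotated transcript. Hist1h2bc has 2 exons and 742 bases after its stop codon, with neither stem-loop nor signal word. Models of Hist2h2aa1 and Hist2h2aa2 end 35 bases past the stem-loop and have no signal word near the end.

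A long model was found in lost genes too. Hist1h1e runs 1153 bases past the stem-loop, Hist1h4d 770 bases and Hist1h3e 369 bases, none with a signal word near the end. Hist4h4 runs 2445 bases past and Hist2h4 1257 bases past, and their polyA levels were 1.72% and 2.05% of digestion. Both have AATAAA near the end, starting 9 and 33 bases from it. Hist1h4j, at 2.50%, has AATAAA as well, starting 11 bases from the end. In Hist1h1c, Hist2h2be, Hist1h4i and Hist3h2a the word starts 26, 22, 21 and 34 bases from the end. Whether this position matters was not tested. Among tested coding members the median log2 fold change against digestion was -3.47 for the 13 with a signal word (range -7.03 to 0.10) and -6.41 for the 45 without (range -9.29 to 0.62), or -2.97 and -5.78 with genes at 0 in polyA set to their bound. By the end of the longest model it was -5.23 for 22 genes that run past the stem-loop, -6.41 for 17 that end there, -6.17 for 11 that end at the stop codon and -4.95 for 8 with a longer end that lacks the motif. With bounds the 4 medians were -5.23, -5.39, -5.38 and -4.46, which leaves the first 3 nearly equal. These are descriptions of annotated models, and the ends used in this liver were not measured. The hairpin letters did not separate the genes: the sequence of Hist3h2a (-0.54) is also that of Hist1h1e (-7.90), and Hist1h4i (-1.01) shares its letters with Hist2h4 (-5.59).

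Other histone and cell cycle genes gave the setting for these values. Of 10 tested replacement variant genes (11 listed), which package DNA outside S phase, 6 rose and none fell after polyA selection against unselected, where 25.6% of all genes rose and 24.8% fell, with a median log2 fold change of 0.43 beside 0.04 (library totals, which shift all genes upwards, called all 10 higher). H3f3a, which encodes H3.3, rose by 0.88 on the log2 scale (SE 0.08, edgeR adjusted p = 4.1e-10), and its group means were 48.8 ± 1.27 normalised CPM unselected (SD, n = 3) and 88.3 ± 7.97 in polyA (SD, n = 9). H2afx, a variant whose transcript also carries the hairpin, had a log2 fold change of -0.06 (SE 0.28, adjusted p = 0.879) against unselected and fell by 0.63 (SE 0.10, adjusted p = 8.1e-07) against digestion. Among 15 tested factors of histone mRNA 3' end formation (16 listed), 3 rose and 4 fell against unselected, with a median of 0.02. Of 19 cell cycle genes 5 rose, a share near that of all genes, and 1 fell, with a median of 0.27. With library totals all 15 and all 19 were called higher, with medians of 2.67 and 2.89 beside 2.67 for all genes. Tk1, thymidine kinase, led the list in level at 12.9 ± 1.37 unselected (SD, n = 3).

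Under TMM scaling, summed markers of liver cell types also differed with the method, in both directions. Their sums with library totals, which raise the median of all genes by 2.67 (log2) here, are not given, so the directions apply to TMM scaling. Lower after polyA selection, without overlap, were the 5 sinusoidal endothelial markers (149 to 159 normalised CPM in unselected batch 1 and 73.4 to 77.3 in polyA), the 5 stellate cell markers (225 to 230 and 137 to 147) and the 6 Kupffer cell markers (105 to 112 and 75.5 to 84.3). Higher without overlap were the 8 hepatocyte markers (62101 to 63259 and 70660 to 78315), the 5 erythroid markers (322 to 332 and 410 to 518) and the 4 cholangiocyte markers (12.7 to 13.6 and 19.2 to 26.0). The 6 lymphocyte and 3 neutrophil markers overlapped between the groups, at no more than 2.82 and 0.724, and Ly6g was the one gene of these 8 lists at 0 in all unselected liver libraries. The part of these differences in the histone results was not tested. All these libraries were made from RNA of the same liver.

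Against unselected RNA under TMM scaling, 5 of 58 members rose after pull-down and none fell, beside 17.5% and 15.3% of all genes (32.8% in either direction). After digestion 6 of 58 rose and 1 fell, beside 7.08% and 7.64% (14.7%), so that the share of members called was near that of all genes. Scaling by library totals called 49 higher after pull-down and 55 after digestion and none lower, beside 94.9% and 97.9% of all genes higher and 0.272% lower in each, with shifts of the median of all genes by 2.31 and 2.85. Hist1h2bc rose after pull-down by 0.71 on the log2 scale (SE 0.11, edgeR adjusted p = 4.6e-06) from 27.8, 30.6 and 33.9 normalised CPM in unselected batch 2, and its pull-down range began above them at 37.9. Hist1h1c (0.33, SE 0.12, adjusted p = 0.0336), Hist1h1d, Hist1h2bn and Hist1h4n made up the rest. After digestion, the H3 genes Hist2h3b (log2 fold change 1.39, SE 0.41, adjusted p = 0.0196), Hist1h3e (1.12, SE 0.34), Hist1h3f (1.58, SE 0.53) and Hist1h3h and the H4 genes Hist2h4 (1.01, SE 0.31) and Hist1h4n rose, and the H2B gene Hist2h2bb fell by 1.38 (SE 0.44). Hist1h2bn, Hist1h4n and Hist1h3h had 3 counts or fewer over the 3 unselected batch 2 libraries. Hist1h2bc kept its call under every alternative run, and each of the others lost its call under at least 1, Hist2h4 aside, whose values under the alternatives are not reported here. The number that rose dropped to between 1 and 4 after pull-down and between 1 and 3 after digestion when any unselected batch 2 library was left out, while the share of all genes that rose was 13.5% to 14.6% and 3.02% to 4.96% in these fits. Lowest were the counts without replicate 3 (1 and 1), and without replicate 1 both were 2. Without replicate 2 they were 4 and 3.

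Between the rRNA methods, digestion gave higher values than pull-down for 19 members of 58 and lower ones for 13, beside 34.7% and 36% of all genes (70.7% in either direction). The share of members that were higher was near that of all genes, and differences between families were not tested. Of 11 tested H3 genes 9 were higher and none lower, and of 14 H2A genes 7 were higher and none lower. Of 15 H2B genes 8 were lower and 1 higher, and of 5 H1 genes 4 were lower, but with library totals, which move the median of all genes by 0.55, H2B gave 4 lower and 4 higher and H1 1 and 1. With that scaling, which called 73.9% of all genes higher and 7.96% lower, 10 H3 genes and 13 H2A genes were higher and none lower. Of 13 H4 genes 2 were higher and 1 lower, and 9 and 0 with library totals. Without the low-depth pull-down library 22 members were higher and 13 lower, beside 35.1% and 36.7% of all genes in that fit. Under TMM scaling, summed markers of 5 cell types were lower in digestion than in pull-down without overlap, at 75.2 to 85.0 against 156 to 222 normalised CPM for Kupffer cells, 128 to 134 against 174 to 216 for sinusoidal endothelium and 200.4 to 209 against 267 to 344 for stellate cells. Erythroid markers gave 73.2 to 78.3 against 401 to 523 and hepatocyte markers 53752 to 57811 against 58420 to 78492, while cholangiocyte, lymphocyte and neutrophil markers overlapped. Marker sums with library totals, which move the median of all genes by 0.55 here, are not given, so these directions apply to TMM scaling. The part of these differences in the histone counts was not tested.

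Single genes show the size of these differences. Hist2h3b measured 2.78 to 4.85 normalised CPM (median 3.81) in digestion and 0.427 to 2.12 in the 8 deeper pull-down libraries, with no overlap, and 6.54 on 8 counts in the low-depth one. Its log2 fold change, digestion against pull-down, was 1.39 (SE 0.15, edgeR adjusted p = 7.2e-10). Hist1h2bb went the other way, with 1.83 to 3.27 (median 2.67) in pull-down and 0.643 to 1.14 (median 0.739) in digestion, again without overlap, and fell by 1.71 on the log2 scale (SE 0.14, adjusted p = 2.5e-12). Hist1h1e fell by 0.55 on the log2 scale (SE 0.07, adjusted p = 8.9e-08), from 31.3 ± 3.08 (SD, n = 8 deeper pull-down libraries) to 21.6 ± 2.27 (SD, n = 9). These values are under TMM scaling. Library totals move the median of all genes upwards by 0.55, a shift the size of the fall of Hist1h1e. With them 1 of 5 tested H1 genes was lower and 1 higher. The largest fitted value, that of Hist1h2ai, rests on 0 pull-down counts and 52 digestion counts. Summed over all members under TMM scaling, the level was 237 ± 44.3 normalised CPM (SD, n = 8) after pull-down without the low-depth library. It was 278 ± 129 (SD, n = 9) with it and 235 ± 15.9 (SD, n = 9) after digestion. By library totals every digestion library lay above the 8 deeper pull-down libraries. The lowest digestion library had 8697 of 23776169 counts and the highest deeper pull-down library 8662 of 25986716. The low-depth library, with 738 of 1126383, lay above them all.

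Between fragment lengths the largest shift lay between the Hist2h2aa copies, whose sum did not pass the test. Long against short fragments gave 3 higher and 6 lower members of 47 tested in the 27 selected libraries, beside 25.7% and 20.5% of 14454 genes (46.3% in either direction). Hist2h2aa2 had no count in 8 of the 9 long-fragment libraries and 5.45 normalised CPM in the other, against 5.10 to 26.5 in the 9 short-fragment libraries, and fell by 4.73 on the log2 scale (SE 0.46, edgeR adjusted p = 4.2e-08). Hist2h2aa1 rose by 1.55 on that scale (SE 0.31, adjusted p = 2.9e-04), and by 1.36 without the low-depth library (adjusted p = 6.5e-05). In digestion it had 8.14, 5.44 and 8.21 normalised CPM with short fragments and 40.2, 32.97 and 36.6 with long ones, without overlap. The ranges overlapped in polyA (4.70, 5.80 and 2.18 with short and 6.96, 9.35 and 4.34 with long fragments). They overlapped in pull-down too, with 7.01, 10.3 and 6.56 for short fragments and 18.0 and 6.10 for long ones, beside 115 in the low-depth library. Summed with Gm20634, the copies had a log2 fold change of -0.22 (SE 0.25, adjusted p = 0.499). The remaining log2 fold changes were Hist2h3c2 (1.35, SE 0.31) and Hist1h4c (0.43, SE 0.18, adjusted p = 0.0482) upwards, and Hist1h4k (-1.63, SE 0.44), Hist1h2bn (-1.22, SE 0.27), Hist1h2af (-1.19, SE 0.35), Hist1h3h (-0.86, SE 0.29) and Hist2h2bb (-0.64, SE 0.20) downwards. Hist1h4c lost its call without the low-depth library (0.30, adjusted p = 0.0797).

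**Figure D4:**
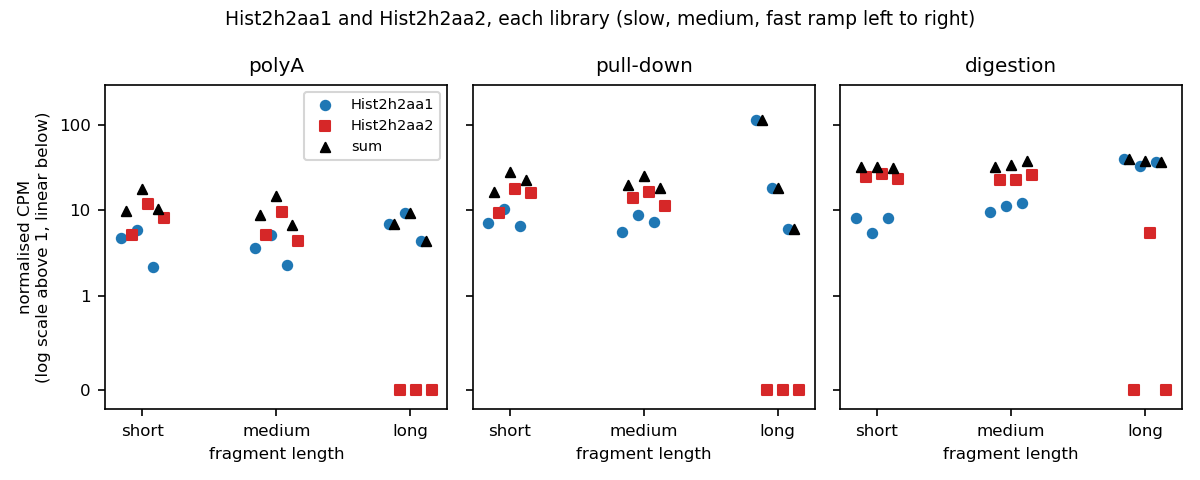
Normalised CPM of Hist2h2aa1, Hist2h2aa2 and their sum in each selected library, by method and fragment length, on an axis that is logarithmic above 1 and linear below. Hist2h2aa2 falls to 0 in 8 of 9 long-fragment libraries while the sum stays with Hist2h2aa1, and the low-depth pull-down library is the point at 115.

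No member was called between ramp rates by edgeR (0 of 47), where 0.00692% of all genes were called, or by DESeq2. At an unadjusted p under 0.05 there were 2 members by edgeR and 7 by DESeq2. Fitted edgeR values, fast against slow, were negative for 37 of the 47. Their median log2 fold change was -0.17, beside 0.0004 for all genes. Between the unselected libraries of the batches no member was called by edgeR (0 of 58, and 0% of all genes) or by DESeq2. Each had 2 members at an unadjusted p under 0.05. This comparison had 3 libraries against 3, with few counts for most members. The ranges of Hist1h2bc in those batches, 34.9 to 37.7 and 27.8 to 33.9, did not overlap, with a log2 fold change of 0.25 (SE 0.13, adjusted p = 0.894).

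The heart library could be compared with the 3 unselected liver libraries of batch 1, without a test, since heart had 1 library. Values for this comparison were normalised over these 4 libraries, which lowers all liver CPM relative to the values above. Members entered with at least 10 counts in heart or a mean of at least 10 over the 3 liver libraries. Of 24 such members, 2 were at least 2-fold higher in heart and 6 at least 2-fold lower, beside 27.7% and 22.2% of 12863 genes. By library totals, which move the median log2 difference of all genes from 0.06 to 0.59, 5 were higher and 1, Hist1h4b, lower, beside 38.4% and 16.3% of all genes. Hist2h2be had 0.923 normalised CPM in heart (95% Poisson interval 0.608 to 1.34, 27 counts) and 0.356, 0.110 and 0.309 in liver, 3.57-fold higher. Hist3h2a had 1.503 (1.09 to 2.02, 44 counts) and 0.711, 0.878 and 0.515 in liver, 2.14-fold higher, but under 2-fold without liver replicate 3. Both belong to the genes that kept signal after polyA selection, but that group did not move as 1: Hist1h2bc, at 3.49 (2.84 to 4.23) in heart and 9.30, 9.28 and 8.61 in liver, was 2.60-fold lower (1.81-fold with library totals).

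Hist1h1c had the highest heart value among members, 7.14 (6.21 to 8.18, 209 counts), above all liver libraries at 4.42, 4.01 and 4.69. It held 19.9% of the member counts in heart and 8.88% ± 0.791 (SD, n = 3) in liver. Hist1h1e was 2.71-fold lower in heart, at 2.49 (1.96 to 3.14) against 6.40, 6.81 and 7.06, and 1.88-fold lower with library totals. The H4 genes Hist1h4b (4 counts), Hist1h4m (11 counts) and Hist1h4c (57 counts) and the copy Hist2h2aa2 (33 counts) were 5.77-, 2.45-, 2.04- and 2.07-fold lower. Without liver replicate 1, Hist1h4c (1.79-fold lower) and Hist2h2aa2 (1.72-fold lower) no longer reached 2-fold. With library totals Hist1h4b was 4.01-fold lower, while Hist1h4m (1.71), Hist1h4c (1.42) and Hist2h2aa2 (1.43) were under 2-fold lower. All members together gave 35.8 in heart and 53.1, 46.9 and 47.9 in liver under TMM scaling. By library totals the heart sum lay within the liver range. It was 1048 of 22292137 counts in heart, and 1046 of 21695696, 855 of 19996856 and 930 of 21052793 in liver. The lower heart sum therefore applies to TMM scaling alone. The intervals cover counting error only, fewer cells with a transcript cannot be told apart from less RNA per cell, and heart was not passed through polyA selection.

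**Figure D5:**
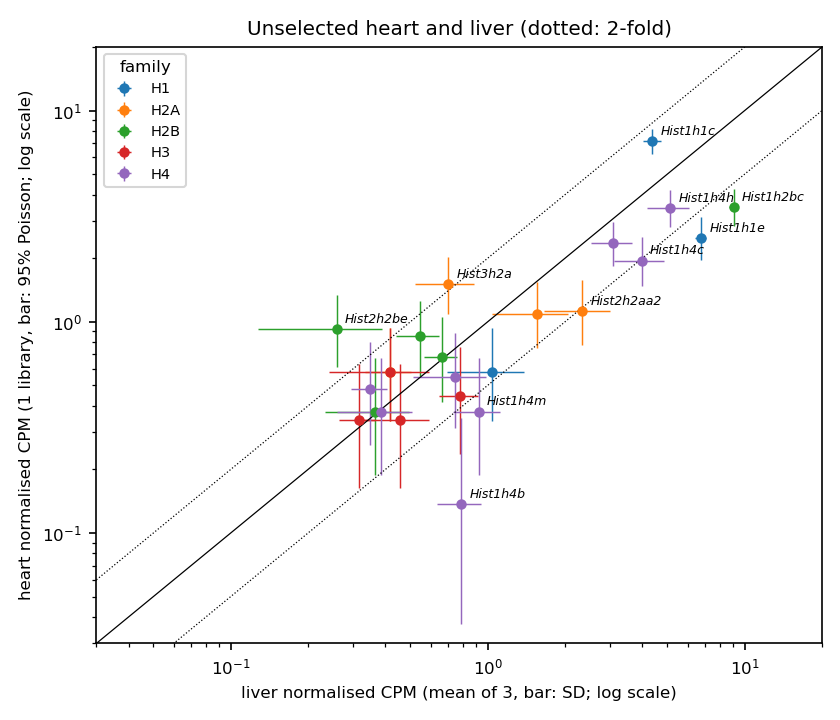
Normalised CPM of the 24 histone genes with enough counts, in heart (1 library, vertical bars give the 95% Poisson interval) against liver (mean of 3 libraries, horizontal bars give the SD), on log axes with dotted lines at 2-fold. Hist2h2be and Hist3h2a lie above the upper dotted line, and Hist1h2bc, Hist1h1e and 4 other genes lie below the lower one.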

How the data were processed

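Expected counts per gene, 1 column per library, were deposited by the authors for 51368 mouse genes and were rounded to whole numbers here. The submitters' processing notes name Salmon 1.9.0, UMI-tools 1.1.1, R 4.4.0 and GRCm38. Which of them made these values, the transcript set and any removal of duplicates by molecular identifier are not given in the sources used here. Salmon assigns reads shared by similar transcripts by a probability model, which can shift them among near-identical histone genes, and 43 of the 70 members share at least 50% of their 31-base words with another gene.

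Symbols, models and transcript sequences came from GENCODE M21 (GRCm38), which matched 50896 identifiers. Tests used edgeR 4.0.16 (R 4.3.3, limma 3.58.1): TMM, filterByExpr and the quasi-likelihood F-test with Benjamini-Hochberg adjustment over all genes, and adjusted p under 0.05 was called. Method and batch comparisons used all 33 liver libraries, adjusted for ramp and length (15422 genes), and length and ramp the 27 selected libraries (14454 genes). The SE was taken as the log2 fold change divided by the square root of F. DESeq2 1.42.0, other scalings and filters, omitted libraries and summed copies were alternatives, the last added after seeing the data. The test was checked on simulated counts. Named genes were those called in the polyA comparisons (up to 10 in each direction) or others (up to 5), those keeping polyA signal, the 10 highest per kb, and heart differences of at least 2-fold. Other genes are named beside them as counterexamples or for their annotation, chosen after their values were seen. Members and lists were chosen with earlier results of these data known.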

Additional observations from a re-analysis of the deposited data

Results flagged for a closer look

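Over the named members, 71 groups of 9 libraries with a mean of at least 10 counts were examined, and 21 had a library set apart from the other 8 by Dixon's criterion, where chance gives about 1 in 20 groups. The low-depth pull-down library (slow ramp, long fragments) was the highest in 17 of them. Its normalised CPM were 115 for Hist2h2aa1 (others 5.61 to 18.0), 92.3 for Hist1h4h (6.22 to 24.5), 67.8 for Hist1h4c (10.4 to 27.7), 36.8 for Hist1h4d (5.40 to 19.2) and 13.1 for Hist1h4m (0.945 to 4.36). On 12 counts or fewer it gave 9.80 for Hist1h3e, 8.99 for Hist1h4a, 7.35 for both Hist1h2bg and Hist1h4b, 6.54 for Hist1h3f, Hist2h3b and Hist3h2a, 5.72 for Hist1h4f, 4.09 for Hist1h2bh and Hist1h4k and 3.27 for Hist1h3c and Hist2h3c2. Hist1h1e (39.2, others 24.9 to 35.1) and Hist1h2bc (59.6, others 37.9 to 56.1) were not set apart there.

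A further pull-down library (medium ramp, long fragments) was highest for Hist1h2br at 1.33 (others 0 to 0.467). In digestion, Hist1h2bb was highest with medium ramp and long fragments at 1.14 (others 0.643 to 0.801), Hist1h4n was lowest with medium ramp and short fragments at 0.986 (others 1.51 to 1.84), and Hist3h2a was lowest with slow ramp and short fragments at 1.89 (others 2.47 to 2.81).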

How the results depend on the processing

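Among recomputed counts of members, 121 stayed within 1.5 times the value reported and 25 did not, and of 508 recomputed gene values 445 kept direction and side of the threshold, 53 lost the call, 2 gained it and 8 turned direction. Scaling by library totals raised the median of all genes against unselected by 2.67 (polyA), 2.31 (pull-down) and 2.85 (digestion) on the log2 scale, and moved it by 0.55 between the rRNA methods and by -0.28 in polyA against digestion. With that scaling 7 members rose with polyA, 49 with pull-down and 55 with digestion, 0 fell with digestion, digestion against pull-down gave 37 higher and 5 lower, and heart 5 higher and 1 lower. Hist1h1c (2.41) and Hist3h2a (1.93) turned upwards against unselected, still below that median. Hist2h2bb became 1.41 after digestion, Hist1h1c 0.39 and Hist1h2bc 0.042 in digestion against pull-down, and Hist2h2be -0.14 in polyA against digestion.

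Fits of the compared batch alone tested 18 members after polyA selection, of which 13 fell (25.3% of all genes), and gave 3 higher after pull-down (16.6%), 2 higher after digestion (5.85%) and 0 lower (7.1%). Without the gene filter 0 fell after digestion (3.11% of all genes), and by DESeq2 2 did (10.2%). Leaving out 1 unselected batch 2 library gave 1 to 4 higher after pull-down, and 1 to 3 higher and 0 to 1 lower after digestion. Totals without rRNA, mitochondrial genes and Lars2 gave 4 higher and 3 lower in heart (34.5% and 17.7% of all genes), and leaving out a liver library 1 to 2 higher (1 without replicate 3) and 4 to 8 lower. Hist2h2be ranged from -0.19 to 0.46 against unselected when a batch 1 replicate was left out (-0.19 without replicate 2), and the summed Hist2h2aa copies gave -0.22 for long fragments. With a replicate block over the 6 unselected libraries, 1 member was higher in batch 1, against 0 without it. Same-numbered libraries of the batches correlated at 0.000892, -0.0483 and -0.0706, so the numbers do not pair them, and their best matches were not their own numbers. Few counts per member in unselected libraries limit those comparisons.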

Other observations

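In digestion against pull-down, 13 of 19 cell cycle genes were lower and none higher, beside 36% and 34.7% of all genes, with a median log2 fold change of -0.36 beside -0.01 for all genes. Library totals, which shift all genes upwards, gave 9 higher and none lower, beside 73.9% and 7.96% of all genes, with a median of 0.20 beside 0.55, so the list's median lay below that of all genes under both scalings. Group means of Pcna, the sliding clamp of DNA replication, were 15.3 ± 1.47 normalised CPM in pull-down and 10.8 ± 0.743 in digestion (SD, n = 9 each), and those of Tk1 15.8 ± 1.23 and 12.4 ± 0.415. Replacement variants gave 3 higher and 6 lower of 10, and 8 and 0 with library totals, beside the same shares of all genes. Under TMM scaling, summed markers of Kupffer cells, sinusoidal endothelium, stellate cells, erythroid cells and hepatocytes were also lower in digestion than in pull-down without overlap. Their sums with library totals are not given, and their part in these list counts was not tested.

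Hist1h2aa and Hist1h2ba had no count in any of the 34 libraries.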
